A study of Mus musculus with 6 samples.

Results

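The NADPH oxidase of phagocytes was described here through 6 genes: Cybb and Cyba, which encode gp91phox and p22phox, Ncf1 and Ncf4, which encode p47phox and p40phox, and the small GTPase genes Rac1 and Rac2. The members are all probe sets whose only gene symbol in the array annotation is one of these 6, which gave 13 of 45101 probe sets, and 6 of 18193 genes with a probe set of their own. The set was chosen by the S3 minus S1 difference in log2 signal of Ncf4, which is among the largest rises, so subset differences in these genes are given as a description, with no test. RNA came from red cell precursors of dissociated Balb/C mouse fetal livers. Flow sorting on the transferrin receptor CD71, the erythroid antigen Ter119 and lineage antibodies gave S1, the less mature subset, and S3, the more mature one, with 3 arrays each from sorts on separate days. S1 is labelled with embryonic day 12.5 and S3 with 13.5 in the stage field, whereas the source field has 13.5 for all 6 arrays, so subset and embryo age cannot be told apart if the stage field holds. The labels name no genetic change or drug for either subset.

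The oxidase transfers electrons from NADPH across a membrane to oxygen and makes superoxide. Its membrane core, cytochrome b558, is a heterodimer of gp91phox, which carries the heme groups, and p22phox, which stabilises it. Cytosolic subunits, p47phox and p40phox among them, join the core upon activation together with GTP-bound Rac, and the enzyme is best known from neutrophils and macrophages, where its loss causes chronic granulomatous disease. p22phox also serves other NOX enzymes, and Rac GTPases act widely on the actin skeleton. Fetal liver at this age makes red cells, and macrophages sit at the centre of its erythroblastic islands.

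Signals are log2 values on the authors' scale, and levels of different genes are not read against each other. Levels of probe sets do enter the choice of a gene's brightest probe set. They also enter the summed signals of marker lists, which weigh bright probe sets most. Array medians ran from 1.83 to 2.94 (log2), and background, the 95th percentile of 27 control probe sets for bacterial transcripts of an array, from 1.01 to 1.74. Arrays differed in how far signal reached toward the 5′ end of transcripts. The 5′ minus 3′ difference of the actin control was -2.59 to -2.08 on S1 replicates 1 and 2 and S3 replicate 2, called short arrays, and -0.56 to -0.45 on S1 replicate 3 and S3 replicates 1 and 3, called long arrays. All 14 measured red cell markers were above background on all 6 arrays, and the log2 of their summed signal was 12.57 to 13.06 in S1 and 13.79 to 14.14 in S3. Across 11959 genes tested with limma the median log2 change from S1 to S3 was -0.33.

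The members did not move together. Ncf4 read far higher in S3, Cyba far lower, and the brightest probe sets of Rac1 and Rac2 had nearly the same mean in both subsets. Ncf1 and Cybb stayed at or near background in S1 and S3 alike. Of the 13 probe sets, 6 were above background on all 6 arrays, 5 on some arrays and 2 on none. A filter on dim probe sets, a mean log2 signal above 1.12, was passed by 7 probe sets of 5 genes, with Cybb left out. In the fit over all genes 1 member was called higher, where 2.53% of all genes were, and 1 lower, where 12.8% were. Over 27022 probe sets fitted one by one, 1 member probe set was higher (1.61% of all were) and 1 lower (6.66%). The contrast that chose the set is the same, so nothing is read from these counts.

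**Figure D1:**
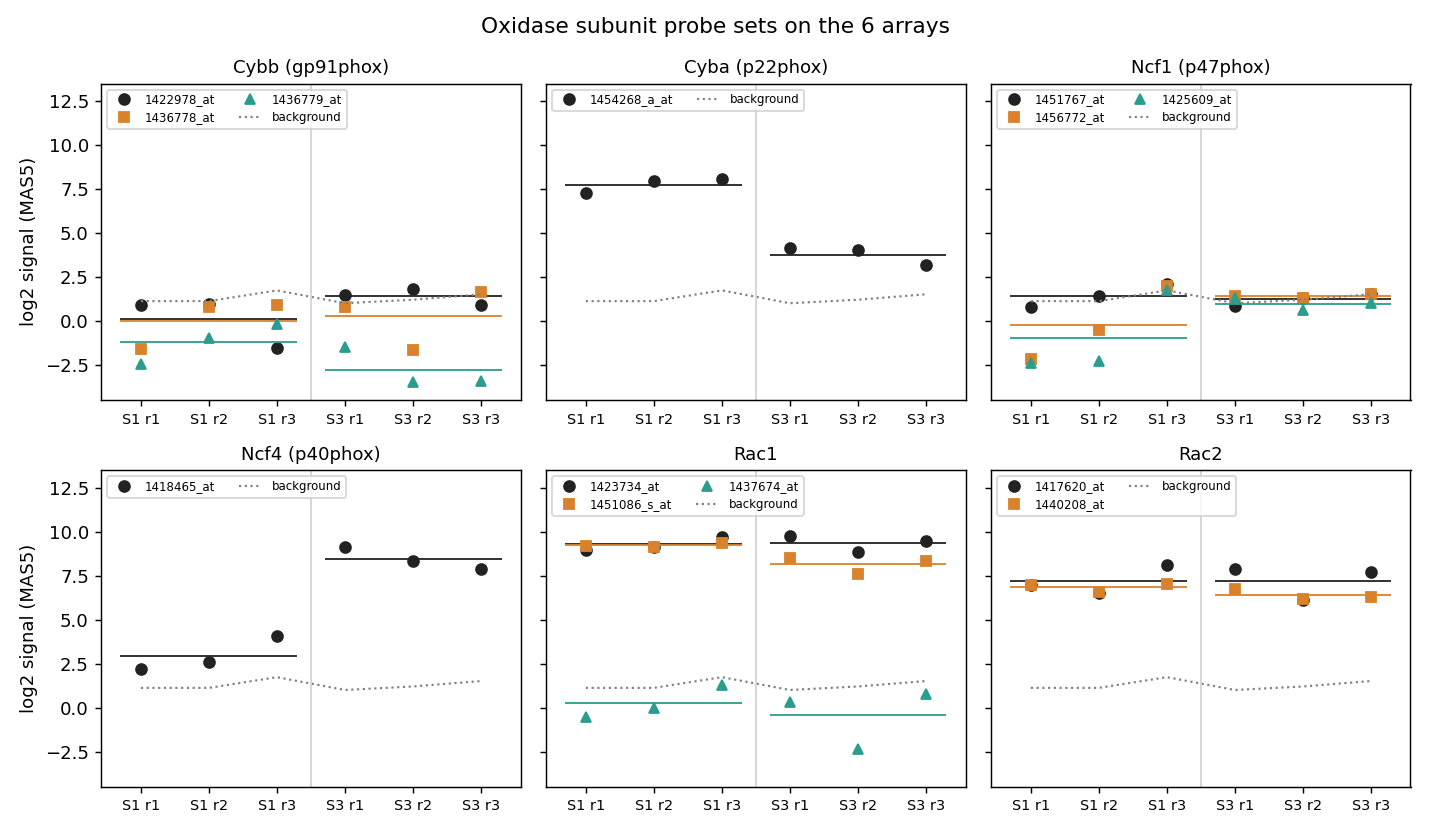
Log2 signal (vertical axis) of each of the 13 probe sets on the 6 arrays (horizontal axis, S1 and S3 replicates r1 to r3), one panel per gene. Symbols are probe sets, short horizontal lines are subset means and the dotted line is each array's background. Ncf4 lies at 2.21 to 4.07 in S1 and 7.91 to 9.12 in S3, Cyba at 7.28 to 8.05 and 3.16 to 4.13, and all Cybb and Ncf1 points lie close to or under background.

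Cybb encodes gp91phox, the catalytic subunit. Its brightest probe set read 0.89, 0.94 and -1.55 in S1 replicates 1 to 3 and 1.50, 1.80 and 0.90 in S3 replicates 1 to 3. No S1 array and 2 S3 arrays were above background, and the subsets overlapped. Another probe set was above background on 1 S3 array and no S1 array, and the last, at -3.47 to -0.15, on none. The 3 probe sets had subset differences of 1.31 ± 0.87, 0.25 ± 1.10 and -1.60 ± 1.00 (log2, SE). These values differ in sign and lie under or near background, so that no direction can be given for Cybb.

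Cyba encodes p22phox, the partner of gp91phox in the membrane. Its single probe set, of a type that matches several transcripts of the gene, read 7.28, 7.94 and 8.05 in S1 replicates 1 to 3. It read 4.13, 4.01 and 3.16 in S3 replicates 1 to 3. Every S3 array lay below every S1 array, as for 29.5% of all genes tested, and all 6 arrays were above background. The mean went from 7.76 ± 0.42 (SD, n = 3) to 3.77 ± 0.53 (SD, n = 3), a log2 difference of -3.99 ± 0.43 (SE), or 15.9-fold lower. Fewer cells with the transcript and less of it per cell cannot be told apart in sorted pools. The difference was -3.59 within the short arrays and -4.41 within the long ones. 66 of the 11959 genes had a larger fall.

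The promoter of Cyba is shown because this subunit gene was the member with lower signal in S3. It is the RefSeq sequence of GRCm38.p6 at chr8:122432891-122433190, on the minus strand, from 250 bases before to 50 after the gene's start, printed 5′ to 3′. Capitals mark matches to AGATAA and to TGATAA, both forms of the GATA factor motif, and to the GC box GGGCGG. These and the ETS factor core GAGGAA were searched on both strands.
Cyba: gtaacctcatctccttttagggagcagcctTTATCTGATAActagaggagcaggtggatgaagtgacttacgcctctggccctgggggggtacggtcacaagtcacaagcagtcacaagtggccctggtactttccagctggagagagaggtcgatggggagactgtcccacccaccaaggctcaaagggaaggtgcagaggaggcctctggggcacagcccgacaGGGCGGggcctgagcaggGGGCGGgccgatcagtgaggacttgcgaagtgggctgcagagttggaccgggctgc
AGATAA, on the opposite strand, and TGATAA share 1 base here, in the run that begins 220 bases before the start. AGATAA or TGATAA occurs in 18.6% of 32841 promoters of this length and GGGCGG in 35.7%. The Cyba window holds 9 CG dinucleotides, and 54.2% of promoters hold fewer. Of the 6 members, 3 had a promoter in the table. The Ncf1 window has neither GATA form, 1 GC box and 3 CG dinucleotides. The Cybb window has 1 match to each GATA form, 1 to the ETS core and 1 CG dinucleotide. GAGGAA occurs in 28.3% of promoters. Binding and methylation were not measured on these arrays, and the matches are a description of the letters only.

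Ncf1 encodes p47phox, the organiser that carries the cytosolic complex to the membrane. Its brightest probe set read 0.80, 1.40 and 2.09 in S1 replicates 1 to 3 and 0.86, 1.28 and 1.54 in S3 replicates 1 to 3. It was above background on 2 arrays of each subset, and the subsets overlapped (log2 difference -0.20 ± 0.55, SE). The other 2 probe sets were above background on 1 S1 array each, and on 3 and 1 S3 arrays. They read -2.41 to -0.51 on the short S1 arrays and 1.78 to 2.00 on S1 replicate 3, a range that takes in all their S3 values, 0.61 to 1.54. Their differences of 1.65 ± 1.05 and 1.95 ± 1.16 (SE) were 2.64 and 2.96 within the short arrays but -0.52 and -0.61 within the long ones. The sign of Ncf1 thus turned with the array class.

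Ncf4 encodes p40phox, whose PX domain binds the lipid phosphatidylinositol 3-phosphate on phagosomes. Its single probe set read 2.21, 2.63 and 4.07 in S1 replicates 1 to 3. It read 9.12, 8.37 and 7.91 in S3 replicates 1 to 3. All 6 arrays were above background, and the lowest S3 array stood far above the highest S1 array; all S3 arrays were above all S1 arrays in 5.81% of genes tested. The mean went from 2.97 ± 0.97 (SD, n = 3) to 8.47 ± 0.61 (SD, n = 3), a log2 difference of 5.50 ± 0.59 (SE), or 45.2-fold. This difference, on which the set was chosen, ranked 10 among all genes by size of rise. Within the short arrays it was 5.95 and within the long arrays 4.45, because the long S1 array had the highest S1 reading.

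Ncf4 and Cyba can be set against each other within an array, where the scale of the array cancels. The Ncf4 minus Cyba difference was -5.07, -5.31 and -3.98 in S1 replicates 1 to 3 and 4.99, 4.36 and 4.75 in S3 replicates 1 to 3. Between subsets it shifted by 9.49 on the log2 scale, with no overlap and with SDs of 0.71 and 0.32. Every S3 array was above every S1 array for Ncf4 and below for Cyba. The shift and the lack of overlap therefore follow from the differences already given and are no separate evidence. The level of such a difference has no meaning across 2 probe sets, and only its shift does. Against the brightest probe set of Rac1 the shift was 5.42 for Ncf4 and -4.06 for Cyba. A second Rac1 probe set itself differed by -1.09 between subsets, so these shifts depend on which Rac1 probe set is taken.

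**Figure D2:**
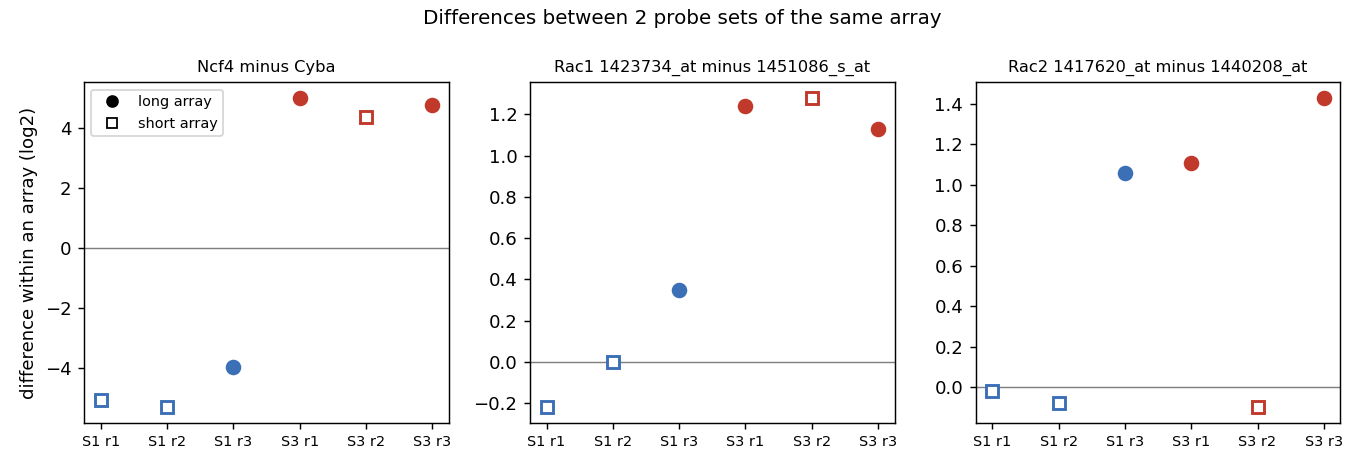
Difference in log2 signal between 2 probe sets of the same array (vertical axis) on S1 and S3 replicates r1 to r3 (horizontal axis), blue for S1 and red for S3, filled circles for long and open squares for short arrays. Ncf4 minus Cyba shifts by 9.49 between subsets and the Rac1 pair by 1.17, while the Rac2 pair is near 0 on all 3 short arrays and 1.06 to 1.43 on the long ones.

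Rac1 is the widely expressed Rac GTPase. Its brightest probe set read 8.98, 9.17 and 9.72 in S1 replicates 1 to 3 and 9.76, 8.86 and 9.47 in S3 replicates 1 to 3, with overlapping subsets (log2 difference 0.07 ± 0.28, SE). A second probe set of the same source sequence, of a type that can match transcripts of more than 1 gene, read 9.20, 9.17 and 9.37 in S1. It read 8.52, 7.59 and 8.35 in S3, below every S1 array (-1.09 ± 0.27, SE). The gap between these 2 probe sets was -0.22 to 0.35 in S1 and 1.13 to 1.28 in S3, again without overlap. The 2 probe sets therefore disagree on Rac1, and which one follows the transcript was not tested. The remaining probe set was not above background on any array.

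Rac2 is the Rac GTPase of blood cells and the main one of the neutrophil oxidase. Its brightest probe set read 6.98, 6.51 and 8.11 in S1 replicates 1 to 3 and 7.87, 6.10 and 7.73 in S3 replicates 1 to 3 (log2 difference 0.04 ± 0.60, SE). The subsets overlapped, and readings followed the array class more than the subset: 6.10 to 6.98 on short and 7.73 to 8.11 on long arrays. With short and long arrays as a block the difference was -0.47 ± 0.21 (SE), where the median change of all genes tested was -0.54. With that block and median centring it was -0.03. The second probe set read 6.58 to 7.05 in S1 and 6.20 to 6.76 in S3, with a difference of -0.46 ± 0.34 (SE), or -0.56 ± 0.23 with the block. Readings of Rac2 were thus above background on all arrays of both subsets.

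**Figure D3:**
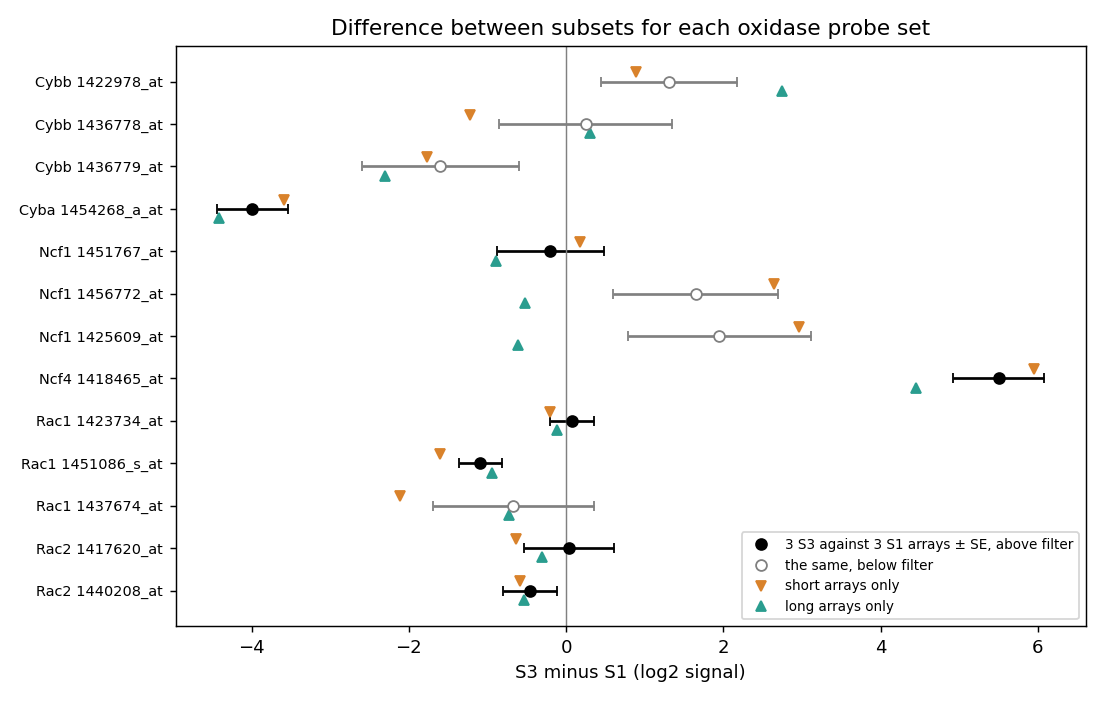
S3 minus S1 difference in log2 signal (horizontal axis) for each of the 13 probe sets (vertical axis). Circles with bars are all 6 arrays ± SE, open where the probe set is below the filter, and triangles are values within the short or the long arrays. Ncf4 (5.50) and Cyba (-3.99) stand apart in both array classes, and all 3 Ncf1 probe sets change sign between them.

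Markers of other cells were set beside these values. The log2 summed signal of megakaryocyte markers was 6.42 to 7.51 in S1 and 8.50 to 8.60 in S3. Of 8 with a probe set, 6 were above background on all arrays, and Gp6 was on none. 1 of the 7 tested was called higher with limma, the clotting factor gene Vwf (2.72 ± 0.60, SE, adjusted p = 0.0244), against 2.53% of all genes. Pf4, whose readings weigh most in the sum, was not called (1.84 ± 0.67, SE, adjusted p = 0.111). Neither were Gp9 (1.74), Ppbp (1.82) and Itgb3 (1.18). In 5 of the 7 every S3 array lay above every S1 array, as for 5.81% of all genes tested. At an unadjusted p under 0.05, 4 were higher and 0 lower, against 5.33% and 24.2% of all genes. With the short and long block 4 were called higher, against 5.81%. Itga2b (-0.31) and Gp1bb (0.32) had overlapping subsets. The Vwf call was lost without S1 replicate 1, S1 replicate 2, S3 replicate 1 or S3 replicate 3 (adjusted p = 0.0808 to 0.0948). Macrophage markers had a summed signal of 5.53 to 7.10 in S1 and 5.85 to 6.80 in S3. Of 18 with a probe set, 2 were above background on all arrays, and Adgre1, C1qc, Vsig4, Cd5l, Mertk and Siglec1 were on none. For granulocyte and monocyte markers the ranges were 4.97 to 7.01 in S1 and 4.60 to 7.43 in S3, with 1 of 18 above background on all arrays and Elane, Ctsg, Ltf, Csf3r, Ccr2 and Mmp8 on none. Of 6 of them tested, 1 was called lower by limma, against 12.8% of all genes, and 0 higher, with a median log2 change of 0.21. It was the granule protease gene Prtn3 (-2.94 ± 0.54, SE, adjusted p = 0.0127), above background on 1 S3 array and lost without S1 replicate 1 or S1 replicate 2. S100a8 (1.57 ± 1.33, SE) and S100a9 (2.46 ± 2.20, SE) had positive differences with overlapping subsets. Gfi1, below the filter, read -2.62, -1.41 and -0.55 in S1 replicates 1 to 3 and 1.14, 1.25 and 2.03 in S3 replicates 1 to 3. It was above background on all S3 arrays and on no S1 array. For Prtn3, and for Mmp8 under background, every S3 array lay below every S1 array. The summed lymphoid signal was 4.45 to 5.32 in S1 and 4.54 to 5.29 in S3. It was 3.62 to 4.48 and 2.65 to 4.49 for mast cells and basophils, 8.17 to 8.45 and 7.98 to 9.97 for hepatocytes, and 4.46 to 5.71 and 3.96 to 4.61 for endothelium. The part of any of these cells in the readings of Ncf4 and Cyba was not tested.

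Of 14 other oxidase subunits and NOX homologues, 9 had a probe set of their own and 4 passed the filter. None of the 4 was called in either direction with limma, and 1, Noxo1, had an unadjusted p under 0.05. Noxo1, an organiser subunit, had a log2 difference of -1.97 ± 0.77 (SE, adjusted p = 0.136), and Rac3 of -1.24 ± 0.54 (SE, adjusted p = 0.178). Noxo1 was above background on 2 S1 and 1 S3 arrays, and its difference was -0.96 with values raised to background. Rac3 was above background on 3 S1 and 1 S3 arrays, and its difference was -0.98 in that setting. Rap1a, a GTPase that copurifies with cytochrome b558, read 7.55 to 8.90 in S1 and 7.75 to 9.17 in S3. Cybc1, a chaperone of gp91phox and p22phox, read 5.40 to 7.35 in S1 and 5.52 to 6.86 in S3, with overlapping subsets. Nox4, Duox1, Duoxa1, Duoxa2 and Hvcn1 were below the filter.

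Regulators of Rac were often lower in S3. Of 26 tested exchange factors, GTPase-activating proteins and GDP-dissociation inhibitors, 11 fell and 0 rose by limma at an adjusted p under 0.05, against 12.8% lower and 2.53% higher among all genes, and their median log2 change was -1.22 against -0.33. At an unadjusted p under 0.05, 13 were lower and 0 higher, where 24.2% and 5.33% of all genes were. Arhgdib, which holds Rac in the cytosol of blood cells, read 7.18, 7.39 and 8.11 in S1 replicates 1 to 3 and 4.14, 4.45 and 4.22 in S3 replicates 1 to 3 (-3.29 ± 0.39, SE, adjusted p = 0.00359). The exchange factors Trio (-3.58 ± 0.46, SE, adjusted p = 0.00453) and Vav2 (-2.61 ± 0.37, SE, adjusted p = 0.00552) and the Rac GAP Arhgap15 (-2.43 ± 0.40, SE, adjusted p = 0.00933) also fell. So did, chosen after their values were seen, the exchange factor Vav1 (-3.81 ± 0.67, SE, adjusted p = 0.0115) and the GAP gene Bcr (-4.25 ± 0.72, SE, adjusted p = 0.00991). Vav1 missed the threshold without S1 replicate 1 (adjusted p = 0.0576) and with the mean of its probe sets (-2.08, adjusted p = 0.0767). Bcr was above background on 1 S3 array, so its size is uncertain. It was -3.56 with values raised to background and -2.88 with the mean of its probe sets, and called in both. Prex1, an exchange factor known from neutrophils, was not called and read 6.80 to 7.58 in S1 and 7.26 to 8.37 in S3. The count of 11 became 5, 6 and 7 without S1 replicates 1, 2 and 3, and 7 without S3 replicate 3, while the share of all genes called lower became 4.52%, 5.08%, 7.50% and 5.64%. With the short and long block it was 14, against 41.2% of all genes. With that block and median centring, 3 were called higher, against 8.56% of all genes.

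Of 18 tested genes of signalling around oxidase activation, not all of them activators, 4 fell and 0 rose. Among all genes 12.8% were lower and 2.53% higher. The median log2 change of the 18 was -0.60. At an unadjusted p under 0.05, 6 were lower and 0 higher, against 24.2% and 5.33%. Inpp5d, the lipid phosphatase SHIP1, read 8.23, 7.52 and 8.12 in S1 replicates 1 to 3 and 6.03, 5.02 and 5.24 in S3 replicates 1 to 3 (-2.53 ± 0.40, SE, limma adjusted p = 0.00807). The others were Pik3cd, a catalytic subunit of PI3-kinase (-3.19 ± 0.58, SE, adjusted p = 0.0127), the phospholipase gene Plcg2 (-2.54 ± 0.47, SE, adjusted p = 0.0131) and the kinase gene Akt1, which read 8.09 to 8.68 in S1 and 7.23 to 7.44 in S3 (adjusted p = 0.0455). Pik3cd missed the threshold with the mean of its probe sets (adjusted p = 0.0983), Plcg2 without S1 replicate 1 (adjusted p = 0.0581), and Akt1 without any 1 of the 6 arrays (adjusted p = 0.0613 to 0.164). The 4 calls became 2 without S1 replicate 1 or with the mean of a gene's probe sets, and 10 with the short and long block, where 41.2% of all genes were lower. Pik3c3, the kinase that makes the lipid bound by p40phox, read 4.80 to 7.16 in S1 and 3.60 to 6.13 in S3 and was not called. Prkcd, a kinase of p47phox, read 2.45 to 5.36 in S1 and 2.22 to 4.30 in S3 and was not called.

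NADPH, the substrate of the oxidase, comes from enzymes of the pentose phosphate and related pathways. Of 13 genes listed, 12 had a probe set of their own, and G6pdx had none, so it was not measured. Of 11 tested, 7 fell and 0 rose, against 12.8% and 2.53% of all genes (median log2 change -1.08). At an unadjusted p under 0.05, 9 were lower and 1 higher, against 24.2% and 5.33%. The higher one, named after its values were seen, was the malic enzyme gene Me1. It read 1.30, 1.48 and 3.49 in S1 replicates 1 to 3 and 4.13, 4.26 and 4.65 in S3 replicates 1 to 3 (2.26 ± 0.66, SE, limma adjusted p = 0.0590). With the short and long block its adjusted p was 0.0125, and in 8 of 18 alternatives 1 gene of the list was called higher. Mthfd1, of one-carbon metabolism (-1.35 ± 0.19, SE, limma adjusted p = 0.00552), the isocitrate dehydrogenase gene Idh1 (-1.31 ± 0.19, SE, adjusted p = 0.00572), the transhydrogenase gene Nnt (-1.44 ± 0.23, SE, adjusted p = 0.00791) and Pgd, of the pentose phosphate pathway (-1.03 ± 0.22, SE, adjusted p = 0.0223), were named by rule. H6pd (-3.70), Me2 (-1.08) and Pgls (-0.94), also called, were named after their values were seen. H6pd was lost without any 1 S1 array (adjusted p = 0.0554 to 0.0874), Me2 without any 1 array (adjusted p = 0.0545 to 0.0986) and Pgls without any 1 array but S3 replicate 2 (adjusted p = 0.106 to 0.149). Another probe set of Me2 had the opposite sign. Without S1 replicates 1, 2 and 3 and S3 replicate 3 the 7 calls became 3, 4, 3 and 4, against 4.52%, 5.08%, 7.50% and 5.64% of all genes. With the mean of a gene's probe sets they became 4, against 8.29%, and with each array centred on its median 3, against 8.13% of all genes. Pgd was lost without S1 replicate 1, S1 replicate 3 or S3 replicate 3 (adjusted p = 0.0544 to 0.0877). Median centring lost Idh1 (adjusted p = 0.0646), Pgd (0.134), Me2 (0.129) and Pgls (0.288), and the mean of a gene's probe sets lost Mthfd1 (0.0614), Pgd (0.0717), Me2 (0.596) and Pgls (0.0545).

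Of 16 tested genes that remove superoxide and peroxide, 1 rose and 0 fell, against 2.53% and 12.8% of all genes, with a median log2 change of 0.15. At an unadjusted p under 0.05, 3 were higher and 0 lower, against 5.33% and 24.2%. Srxn1, sulfiredoxin, which reactivates oxidised peroxiredoxins, read 5.60, 5.49 and 5.72 in S1 replicates 1 to 3 and 8.01, 7.55 and 7.93 in S3 replicates 1 to 3 (2.22 ± 0.31, SE, limma adjusted p = 0.00552). The superoxide dismutase gene Sod1 read 11.11 to 11.19 in S1 and 10.98 to 11.11 in S3. With the short and long block 4 were higher and 2 lower, against 5.81% and 41.2% of all genes. The higher count differed from 1 in 8 of 18 alternatives and reached 8 with that block and median centring, where 8.56% of all genes were higher. Of 10 tested transcription factors that act on oxidase genes or on red cell genes, 1 fell, against 12.8% of all genes. It was Gata2 (-2.62 ± 0.46, SE, limma adjusted p = 0.0115), a call lost without S1 replicate 1 (adjusted p = 0.0530). Spi1, the myeloid factor PU.1, was not called and read 1.88 to 3.68 in S1 and 1.38 to 2.76 in S3.

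**Figure D4:**
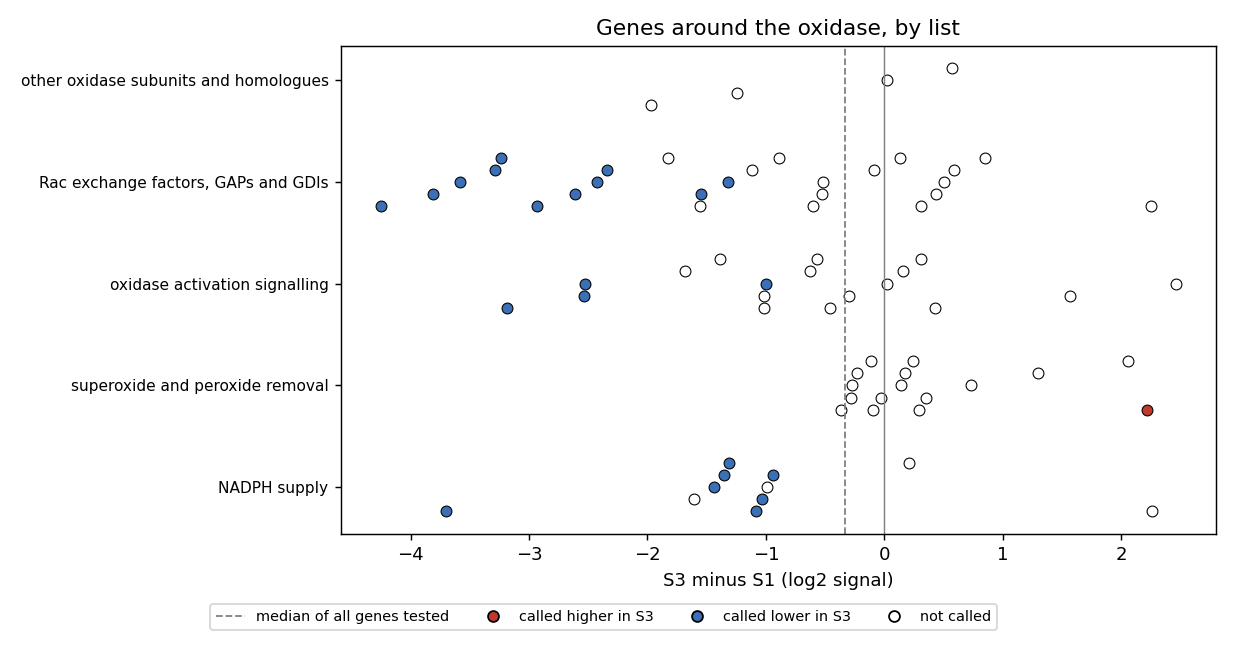
S3 minus S1 difference in log2 signal (horizontal axis) for each tested gene of 5 lists around the oxidase (rows, with points offset vertically for legibility). Blue points were called lower and red higher by limma at an adjusted p under 0.05, and the dashed line is the median of all genes tested (-0.33). Called genes among Rac regulators (11 of 26), signalling genes (4 of 18) and NADPH supply (7 of 11) all lie on the lower side, and Srxn1 is the red point.

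Ncf4 lies on mouse chromosome 15, as does Rac2, 17 genes away in the order of the RefSeq table. The 6 genes on either side of it in that table (GRCm38.p6, used for order only) include 8 with a probe set of their own. The next protein-coding genes on one side, Csf2rb2 and Csf2rb, were also higher in S3. They encode the beta subunits of the receptors for interleukin-3, GM-CSF and interleukin-5, and are close paralogues whose probes may share targets. Csf2rb read 2.53, 1.23 and 1.58 in S1 replicates 1 to 3 and 6.45, 3.66 and 5.13 in S3 replicates 1 to 3 (3.30 ± 0.76, SE, limma adjusted p = 0.0277). Csf2rb2 read 0.31, 1.22 and -1.16 in S1 replicates 1 to 3 and 4.47, 3.13 and 2.99 in S3 replicates 1 to 3 (3.41 ± 0.75, SE, adjusted p = 0.0242). Csf2rb was above background on 2 S1 arrays and Csf2rb2 on 1, and a second probe set of Csf2rb rose by 3.55 ± 0.65 (SE). With values raised to background Csf2rb2 was at 2.17 (adjusted p = 0.0236), so its size is uncertain. Within the short and the long arrays Csf2rb differed by 1.78 and 4.20, and Csf2rb2 by 2.36 and 4.89. Leaving out S1 replicate 1, S3 replicate 1 or S3 replicate 3 cost both their call (adjusted p = 0.0611 to 0.0907), and S1 replicate 2 or 3 that of Csf2rb (adjusted p = 0.0992 and 0.0582). On the other side the nearest gene, Pvalb, was not above background on any array. Ift27 (0.78 ± 0.28, SE, adjusted p = 0.114), Cacng2 (-0.33 ± 0.49, SE, adjusted p = 0.736), Eif3d (0.02 ± 0.44, SE, adjusted p = 0.987), Tex33 (-0.97 ± 0.52, SE, adjusted p = 0.278) and Tst (0.46 ± 0.33, SE, adjusted p = 0.429) were not called.

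**Figure D5:**
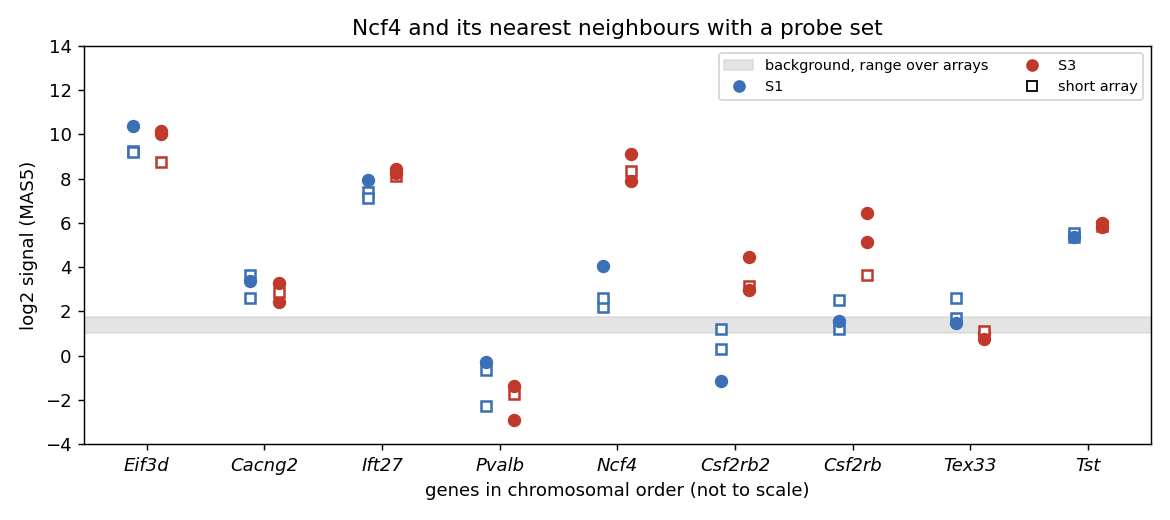
Log2 signal (vertical axis) of Ncf4 and the neighbouring genes with a probe set, in chromosomal order (horizontal axis, not to scale), blue for S1 and red for S3, filled circles for long and open squares for short arrays. Ncf4, Csf2rb2 and Csf2rb have all S3 arrays above all S1 arrays, with the widest gap for Ncf4. Ift27 and Tst do so by smaller gaps, and Pvalb lies under the grey band of background.

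The 5 genes whose profile over the 6 arrays was most like that of Ncf4, by Pearson's r, were Cyp4b1 (0.9985), Gabarap (0.9975), Ctsd (0.9973), Gypc (0.9952) and Cfap57 (0.9952). All share with Ncf4 the 6 arrays and the gap between the subsets, and 164 of 11959 genes (1.37%) had an r above 0.95. The sizes differed. Cyp4b1, a cytochrome P450, went from -0.25, 0.55 and 1.78 in S1 to 6.12, 5.46 and 5.05 in S3, with 1 S1 array above background. Gabarap, of autophagy, read 9.18 to 9.32 in S1 and 9.63 to 9.70 in S3, and Ctsd, cathepsin D, went from a mean of 9.01 ± 0.17 (SD, n = 3) in S1 to 10.11 ± 0.11 (SD, n = 3) in S3. Gypc, glycophorin C, read 8.79 to 9.05 in S1 and 9.82 to 9.97 in S3. The brightest probe set of Cfap57 was above background on no S1 array and read at least 51.9-fold higher in S3. A second probe set of Cfap57 rose by 3.03 ± 0.76 (log2, SE), so the size for the gene is uncertain. Cyba ran the opposite way over the same arrays (r = -0.920 with Ncf4, n = 6 arrays, as a description).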

How the data were processed

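Total RNA was amplified, labelled with biotin and hybridised to mouse whole-genome arrays, per the labels. Per the series' design text, the authors took MAS5 signals (version not given in the sources used here) and scaled them to the mean of probe sets for 18S RNA, Gapdh and beta-actin. The deposited values are log2 signals, base 2 being taken from their size, and were used as they stand. No detection calls were used.

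Probe sets with 1 symbol (34945 of 45101) were named. Per gene the brightest probe set above the 40th percentile was kept, leaving 11959 genes. The S3 minus S1 difference was estimated in limma 3.58.1 (under R 4.3.3, intensity trend, two-sided, Benjamini-Hochberg over all genes, threshold 0.05). The fit was checked on simulated arrays with independent noise, so the check does not cover the short and long array classes. Errors rest on 3 arrays a subset, whose number limits the precision. Probe sets were also fitted one by one. Members, lists and the short and long split were chosen with earlier results of these data known. Named were all members, up to 4 called genes per list (the 2 smallest p where none was called), 6 neighbours a side and the 5 most alike; genes named beside these for their role were picked with their values seen. Labels name the sorts biological replicates.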

Additional observations from a re-analysis of the deposited data

How the results depend on the processing

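Over 18 alternatives the log2 difference of Ncf4 was 4.45 to 6.05 and that of Cyba -4.41 to -3.55; the contrast that chose the set is the same, so these are a description. Rac1 ranged from -0.51 to 0.32, Rac2 from -0.64 to 0.60 and Ncf1 from -0.89 to 0.18, each with changes of sign. As counts from which nothing is read, member probe sets past the threshold were 1 higher and 1 lower, 0 and 0 for the short arrays alone, and 2 lower with quantile normalization, the 60th percentile filter, values raised to background, the replicate block, the short and long block and the long arrays alone. The share of all probe sets called lower, 6.66% in the reported fit, is not given for the other settings. Over all genes tested the share lower was 12.8% as reported, 9.42% with quantile normalization and 17.1% with the 60th percentile filter. It was 13.3% with values raised to background, 15.9% with the replicate block and 41.2% with the short and long block. Whether the second lower member probe set followed these shares was not tested. Genes called higher and lower numbered 302 and 1533 (16.5% higher). They were 478 and 972 with median centring (33.0% higher), 698 and 1127 with quantile normalization (38.2%), 695 and 4922 with the short and long block, 1024 and 2013 with that block and median centring (33.7%), 337 and 2601 for the short arrays alone, 617 and 4151 for the long arrays alone, and 241 and 991 with the mean of a gene's probe sets. Leaving out 1 array gave 119 to 370 higher and 541 to 1273 lower. The median change of all genes, -0.33, was -0.10 after median centring and -0.07 after quantile normalization. The replicate number as a replicate block gave 412 and 1897; deviations of same-numbered arrays had r = -0.19, 0.36 and 0.43. Over all pairings r was 0.28 to 0.43 between arrays of 1 class and -0.58 to -0.19 between classes, so r does not show whether a number stands for a shared sort day, and the number was not used as a pairing. The causes were not tested. Signal near background limits what can be said of Cybb and Ncf1.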
